A study of Mus musculus with 45 samples.

Results

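The comparison described here set mouse embryonic stem cells (mESC) depleted of the transcription factor SOX2 for 2 h against untreated cells of the same line, and asked at which genes and loci chromatin closed and opened. It holds 4 ATACseq libraries, 2 labelled NT and 2 labelled 2 h, chosen by their sample titles from 31 libraries with counts among the 45 samples of the series. All 4 come from the E14 line with genotype SOX2-FKBP, in which SOX2 carries an FKBP degron tag, so that the small molecule dTAG-13 sends it to the proteasome. NT cells, kept in 2i and LIF medium without serum like the treated ones, received DMSO, given together with the last dTAG-13 addition of the time course. Treated cells received 500 nM dTAG-13 for 2 h. The MEK inhibitor and the GSK3 inhibitor of this medium were present in both groups. The tag was placed at the C-terminus by genome editing, and the methods name IB10 cells for this line. The methods also mention an independent clone for SOX2, but the labels of these 4 libraries do not set any of them apart as that clone. Neither the labels nor the methods say whether the replicates were separate cultures, so p-values measure the spread between these libraries, which may be technical. Counts of DNA fragments do not measure the SOX2 protein, so these data hold no check of the depletion itself.

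SOX2 is an HMG-box factor that bends DNA and, together with the POU factor OCT4 (encoded by Pou5f1), occupies enhancers of the pluripotency network in embryonic stem cells. The pair often binds next to each other on a composite element made of a SOX site followed by a POU octamer. In ATACseq the Tn5 transposase cuts open DNA, so the number of fragments at a peak is a measure of its accessibility. Below, a peak is called lost or gained when its level at 2 h was lower or higher than in NT with an adjusted p below 0.05 in edgeR's quasi-likelihood test over all tested peaks. A gene gathers the peaks whose summit lies nearer to its transcription start site (TSS) than to that of any other protein-coding gene, with no limit on distance, so a gene flanked by long intergenic stretches gathers more. Such an assignment does not show that a peak regulates the gene.

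The following sequences come from mm10 (GRCm38) and read 5′ to 3′ on the plus strand. Each lies in a lost peak of a core pluripotency locus, or in 1 of the lost peaks with the largest fall. Each also holds a SOX or SOX-POU match within 150 bases of the summit, marked in capitals. That match was a condition for showing them. At Klf2 the peak with the largest fall, downstream of the TSS, held none there and was passed over. The Nanog window (chr6:122707361-122707480) ends close to the Nanog TSS and holds the full composite, written CNTTGT, 1 free base and ATGCAAA, on the minus strand. The windows assigned to Uqcrb (chr13:66711095-66711214) and Pdcl2 (chr5:76321574-76321693) hold composites with 1 mismatch, also on the minus strand. The Klf2 (chr8:72316183-72316302), Pou5f1 (chr17:35490477-35490596) and Sox2 (chr3:34787160-34787279) windows hold SOX matches without a composite, CATTGT or CTTTGT, and capitals mark the one nearest to the summit, on the plus strand at Sox2 and on the minus strand at the others. The Pou5f1 window holds a further SOX match, on the plus strand, and the Pdcl2 window holds one outside its composite, both left in lower case. A match on the minus strand appears in the lines below as its reverse complement.
Nanog: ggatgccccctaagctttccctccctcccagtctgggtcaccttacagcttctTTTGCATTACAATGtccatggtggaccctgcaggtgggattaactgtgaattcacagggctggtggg
Uqcrb: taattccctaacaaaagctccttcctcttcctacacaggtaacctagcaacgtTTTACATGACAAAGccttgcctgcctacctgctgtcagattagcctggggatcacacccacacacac
Pdcl2: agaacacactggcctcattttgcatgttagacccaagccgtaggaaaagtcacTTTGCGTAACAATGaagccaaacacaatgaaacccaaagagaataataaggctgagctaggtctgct
Klf2: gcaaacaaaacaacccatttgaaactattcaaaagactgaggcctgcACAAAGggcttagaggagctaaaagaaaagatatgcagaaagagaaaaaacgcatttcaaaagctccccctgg
Pou5f1: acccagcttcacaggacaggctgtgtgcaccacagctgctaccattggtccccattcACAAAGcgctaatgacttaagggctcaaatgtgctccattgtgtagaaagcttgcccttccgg
Sox2: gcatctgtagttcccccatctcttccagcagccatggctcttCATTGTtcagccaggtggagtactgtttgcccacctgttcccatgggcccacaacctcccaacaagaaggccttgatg

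With up to 2 mismatches over the 12 fixed letters allowed, the composite stood in the 300 bases around the summit of 19.7% of lost peaks, 2.94% of peaks not called and 1.54% of gained peaks, beside 4.14% of all tested peaks. A SOX match stood in 61.2% of lost and 19.4% of gained peaks, against 34.2% of all tested peaks; this match, CATTGT or CTTTGT, can fall on the SOX part of a composite. The octamer ATGCAAAT was found in 6.38% of lost and 2.78% of gained peaks (2.74% of all), and the letters overlap with those of the composite. The order turned for the ESRRB match CAAGGTCA, the element of an orphan nuclear receptor of naive cells, which stood in 14.96% of gained, 8.24% of lost and 5.52% of all tested peaks. The AP-1 match TGANTCA was found in 15.6% of gained, 10.7% of lost and 9.88% of all tested peaks. Matches on both strands were counted, and these shares are descriptions of letters in the windows, without a test. Median GC content was 47.3% in lost and 52.3% in gained windows. A gained peak with an ESRRB match, the peak with the largest rise, is shown for comparison (chr17:27041367-27041486, downstream of the Ggnbp1 TSS, match in capitals).
Ggnbp1: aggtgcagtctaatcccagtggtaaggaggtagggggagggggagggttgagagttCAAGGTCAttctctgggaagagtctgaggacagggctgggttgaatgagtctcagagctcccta

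The libraries held 10531404 and 6479369 counts in NT and 9434043 and 10140571 at 2 h. Open promoters of stem cell genes were present: 5 of 6 markers (Pou5f1, Sox2, Nanog, Zfp42, Esrrb and Klf4) had a tested peak within 500 bp of a TSS, with summed normalized counts of 1571 and 1730.1 in NT and 1475 and 1469 at 2 h. Pou5f1 is the marker without such a peak. The summed promoter counts of 5 fibroblast markers were 207 and 228 in NT and 265 and 260.2 at 2 h, those of 4 trophectoderm markers 175 and 176 against 191 and 199.7, and those of 4 primitive endoderm markers 559 and 559 against 499 and 588. Promoters open in many cell types that do not use the gene, so they mark cell types weakly, and their part in the results was not tested. Fewer cells with an open site and less accessibility per cell cannot be told apart in these bulk libraries.

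Loss outnumbered gain. Of 160432 tested peaks, 11680 were lost (7.28%) and 2339 gained (1.46%). In 11675 of the lost peaks both 2 h libraries lay below both NT libraries, and in 2338 of the gained peaks both lay above. Calls made in these same libraries all but fix this, so it gives no separate support. Lost peaks had a median log2 fold change of -1.35 and 8805 of them changed by more than 1 log2 unit, against a median of 0.94 and 1010 peaks for gain. Median normalized counts went from 67.6 in NT to 24.4 at 2 h over lost peaks and from 32.1 to 62.0 over gained peaks, directions that the calls themselves fix. The number of gained peaks depended on the fit: with the replicate number as a block it was 5641, with DESeq2 409, and it was 990 without NT replicate 1, 807 without NT replicate 2, 817 without 2 h replicate 1 and 1549 without 2 h replicate 2. DESeq2 called 6728 lost peaks, all of them among the 11680. The number of lost peaks moved too: it was about 15000 with the replicate block and below 11680 without any 1 library.

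The share of lost peaks was higher in each class farther from a TSS. Within 0.5 kb of a protein-coding TSS, 304 of 18846 tested peaks were lost (1.61%). The share was 6.27% between 5 and 25 kb, 8.80% between 25 and 100 kb and 14.5% between 100 and 500 kb, and beyond 500 kb 529 of 1970 peaks were lost (26.9%). Gained peaks followed another course: their share was 0.541% within 0.5 kb, lay between 1.49% and 1.66% in each class from 0.5 to 500 kb, and was 0.203% beyond it. Intergenic positions held 50.6% of lost, 41.2% of gained and 37.6% of all tested peaks. By chromosome, the lost share ran from 5.66% on chromosome 11 to 9.15% on chromosome 13 among autosomes and was 12.4% on X, where 7 peaks were gained.

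**Figure D1:**
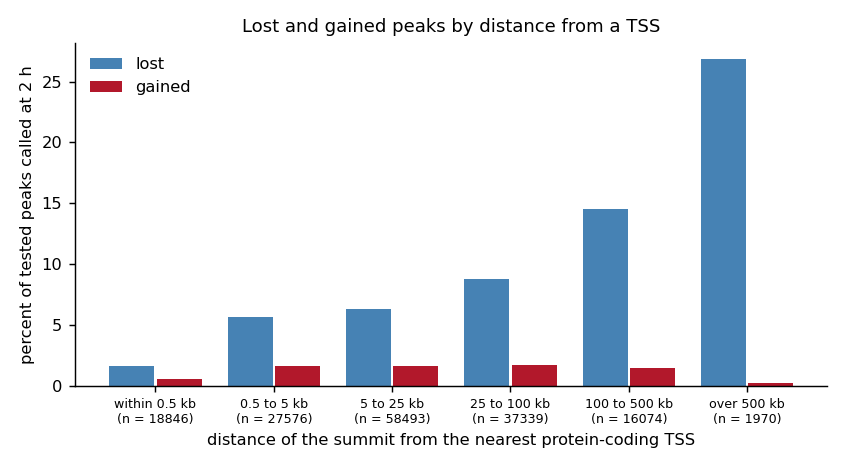
Percent of tested peaks called lost (blue) and gained (red) at 2 h, by distance of the peak summit from the nearest protein-coding TSS in kb; n is the number of tested peaks in each class. The lost share is 1.61% within 0.5 kb and 26.9% beyond 500 kb.

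The lost peaks fell to 5911 of 18663 genes, and for 3364 of these it was 1 peak. Another 2128 genes gathered 2 to 4 lost peaks, 367 gathered 5 to 9 and 52 gathered 10 or more. Those 52 had a median of 39 tested peaks, against 5 for all genes. Gained peaks fell to 1702 genes, 1331 of them with 1 gained peak and 4 with 10 or more. Both kinds met at 726 genes. When the counts of all tested peaks of a gene were summed, 2166 gene loci were lower at 2 h (11.6%) and 465 were higher (2.49%) of 18663. With the replicate block 3130 loci were lower and 1460 higher, and DESeq2 called 1679 lower and 245 higher. Leaving out 1 library gave 1249 lower and 124 higher loci without NT replicate 1, 1374 and 102 without NT replicate 2, 1330 and 135 without 2 h replicate 1, and 1478 and 180 without 2 h replicate 2.

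Among genes, Tbl1xr1, which encodes a subunit of the NCoR/SMRT corepressor, gathered the most lost peaks, with 22 of 102 tested peaks lost. Summed over its locus the normalized counts were 5844 and 5671 in the NT libraries and 4323 and 4191 at 2 h (log2 fold change -0.44, SE 0.07, edgeR adjusted p = 0.000334), and the groups did not overlap. Of its lost peaks, the deepest fall stood at chr3:22411697-22412844, 209 kb downstream of a TSS, with 94.6 and 94.9 in the NT libraries and 9.43 and 13.3 at 2 h. Dpp6, an auxiliary subunit of voltage-gated potassium channels, lost 20 of 50 peaks. Its sums were 2773 and 2797 in the NT libraries and 1684 and 1723 at 2 h (log2 fold change -0.71, SE 0.07, edgeR adjusted p = 5.77e-06). At Auts2, a neurodevelopmental gene whose product joins a Polycomb complex, 19 of 96 peaks were lost, and the sums were 4172 and 4094 in the NT libraries and 2918 and 2925 at 2 h (log2 fold change -0.50, SE 0.07, edgeR adjusted p = 8.84e-05). Both 2 h libraries lay below both NT libraries at each of these 3 loci, which their choice by lost peaks favours.

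The other 12 of the 15 genes that lead in lost peaks followed with 12 to 16 each. Ctnnd2 (delta-catenin) lost 16 of 49 peaks, the contactin Cntn5 16 of 49, the scaffold gene Magi2 15 of 39, the teneurin Tenm3 15 of 119, the protocadherin Pcdh9 13 of 37, the cadherin Cdh9 13 of 37 and Cdh2, which encodes N-cadherin, 13 of 40. The summed counts of Cdh9 were 1675 and 1606 in the NT libraries and 798 and 825 at 2 h, the largest fall among the 15 genes (log2 fold change -1.02, SE 0.09, edgeR adjusted p = 3.07e-06). The rest were Ercc4 (13 of 49), which encodes a DNA repair nuclease, the zinc transporter gene Slc39a10 (13 of 28), Mpped2 (13 of 44), 4930452B06Rik (13 of 35) and Sall1 (12 of 75), a zinc finger factor of pluripotent cells. The sums of all 15 loci were called lower, which their choice by lost peaks favours, with log2 fold changes from -1.02 to -0.21, the smallest at Sall1. Sall1 stood at 0.040 when peaks were given to the nearest gene of any kind, noncoding ones included. Together they held 226 lost peaks and 1 gained peak of 849 tested.

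**Figure D2:**
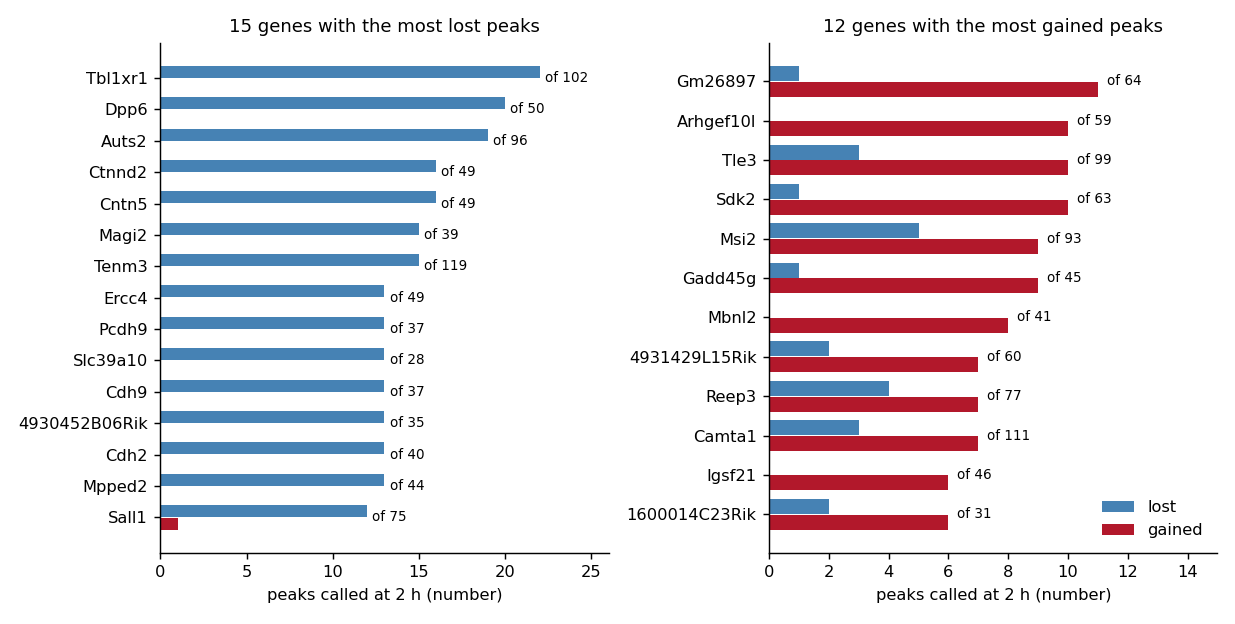
Number of peaks called lost (blue) and gained (red) at 2 h for the 15 genes with the most lost peaks (left) and the 12 genes with the most gained peaks (right); the text at each bar gives the number of tested peaks of the gene. Tbl1xr1 leads with 22 lost peaks and Gm26897 with 11 gained peaks.

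Many of these peaks lay far from the gene. The median distance of the called peaks was 1263 kb at Pcdh9, 509.6 kb at Cdh2 and 353 kb at Tbl1xr1, and 25.3 kb at Auts2. When peaks beyond 100 kb were left out, Dpp6 led with 14 of 42 peaks lost, followed by Auts2 with 13 of 62. Only Dpp6, Auts2, Ctnnd2 and Tenm3 of the 15 genes stayed among the first 15 then. Others that entered were Epb41l4a (11 of 79), Zfp518b (11 of 21), Alg13 (10 of 30) and Gtdc1 (9 of 21).

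Ranked by the share of tested peaks that were lost, among genes with at least 10, smaller loci came first. At 1700009N14Rik 10 of 13 peaks were lost, at Aasdhppt, which encodes a phosphopantetheinyl transferase, 10 of 14, and at Tox, an HMG-box gene, 10 of 16. The sums of Tox were 876 and 943 in the NT libraries and 453 and 415 at 2 h (log2 fold change -1.07, SE 0.11, edgeR adjusted p = 1.48e-05). Lrp1b, of the LDL receptor family, lost 12 of 22. At Lrp1b the sums were 979 and 963 in the NT libraries and 364 and 468 at 2 h (log2 fold change -1.22, SE 0.12, edgeR adjusted p = 5.92e-06). Zfp804b (7 of 12), Akr1e1 (6 of 11), Slco4c1 (6 of 11), Tmem167 (7 of 13) and the Ras-like gene Rit2 (7 of 13) were also among the first 10. None of the peaks of the 10 was gained. The sums of all 10 loci were called lower, as the choice of genes by their lost peaks all but fixes, with log2 fold changes between -1.38 and -0.93. The call at Akr1e1 rested on the assignment: with the nearest gene of any kind its log2 fold change was 0.17.

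Gene families, taken from the letters that open the symbol, describe the same map more broadly. Among 393 families with at least 5 genes and 50 tested peaks, the median share of lost peaks was 6.65%. Lost peaks made up 47 of 185 (25.4%) at protocadherin genes (Pcdh), where 8 of 12 loci were called lower. They made up 26 of 102 (25.5%) at contactin genes (Cntn), where 3 of 6 loci were called lower. At cadherin genes (Cdh) they made up 101 of 546 (18.5%), and 13 of 23 loci were called lower. Over all genes 11.6% of loci were called lower. Single genes named above weigh in these counts: Cntn5 held 16 of the 26, and Pcdh9, Cdh9 and Cdh2 held 13 each in their families. Large clustered families of sensory receptors and metabolic enzymes stood beside these families: 66 of 253 (26.1%) at vomeronasal receptor genes (Vmn), 104 of 568 (18.3%) at olfactory receptor genes (Olfr), 24 of 95 (25.3%) at aldo-keto reductase genes (Akr) and 16 of 68 (23.5%) at sulfotransferase genes (Sult). Such receptor clusters hold few peaks per gene: 253 over 118 Vmn genes and 568 over 307 Olfr genes. Among the families with the highest shares of gained peaks were Hes, the Notch target repressors, with 6 of 82 peaks (7.32%), and Igsf with 10 of 143 (6.99%). The median gained share of the families was 1.18%, and 1.46% of all tested peaks were gained. Igsf21 alone held 6 of the 10 gained Igsf peaks.

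Part of the lost peaks stood in chains. With neighbours at most 25 kb apart, 39.1% of lost and 30.3% of gained peaks had such a neighbour of their own kind; lost peaks are the more numerous, which by itself gives more neighbours. Chains of 3 or more numbered 506 for lost and 84 for gained peaks. Chains of 7, the most for lost peaks, stood at 2 places. The first, with 7 lost of 9 tested peaks, ran over 48.9 kb between Ahi1, a gene of the primary cilium, and Myb, the haematopoietic oncogene (chr10:21082367-21131242). It had summed counts over the chain of 699 and 729 in NT and 189 and 228 at 2 h, and its strongest peak, 32.3 kb downstream of the Ahi1 TSS, went from 236 and 249 to 19.8 and 34.0 (log2 fold change -3.15, SE 0.24, edgeR adjusted p = 2e-11). The second chain of 7, upstream of Atp1b1, which encodes a subunit of the sodium pump, spanned 62.4 kb (chr1:164470415-164532827) with summed counts over the chain of 1109 and 964 in NT and 567 and 519 at 2 h. Chains of 6 covered Klf2 (39.0 kb, chr8:72310595-72349587), the cluster of Dppa5a, Ooep and Gsta2 (25.9 kb, chr9:78349851-78375785) and Gtdc1 (55.5 kb, chr2:44483081-44538626). Dppa5a and Ooep are expressed in pluripotent cells and oocytes. At Gtdc1 the chain had summed counts over the chain of 488 and 568 in NT and 81.1 and 110.2 at 2 h, with log2 fold changes from -3.38 to -1.51 in its peaks. In each of the 5 chains both 2 h sums lay below both NT sums, as sums over lost peaks alone all but must.

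The 10 lost peaks with the largest fall in normalized counts were strong sites, 8 of them intergenic. The largest fall stood far from Dio3, an imprinted deiodinase gene (chr12:109948012-109950374, 330.3 kb upstream of its TSS), with 649 and 708 in the NT libraries and 256 and 284 at 2 h (log2 fold change -1.33, SE 0.15, edgeR adjusted p = 2e-08). The next stood near Ssr2, which encodes a translocon protein (chr3:88571612-88573549), with 600.0 and 656 in the NT libraries and 227 and 215 at 2 h. Deepest in relation to their start were the peaks in an intron of Pdcl2, a gene of the testis, (chr5:76321161-76322138) with 369 and 394 in the NT libraries and 47.2 and 58.8 at 2 h and upstream of Eps8, an actin regulator, (chr6:137669115-137670289) with 376 and 406 in the NT libraries and 50.9 and 61.3 at 2 h. They kept 13.9% and 14.3% of their NT mean. The Pdcl2 peak, like that assigned to Uqcrb (chr13:66710796-66711795, 489.7 and 515 in the NT libraries and 108 and 132 at 2 h), holds a composite shown above. Against the same NT libraries the Pdcl2 peak stood at a log2 fold change of -1.74 after 0.5 h of depletion, -2.46 after 1 h and -3.31 after 24 h. A promoter lay under 1 of the 10, that of 1700019D03Rik, a gene without a characterised role, with 550.5 and 599 in the NT libraries and 210.3 and 235 at 2 h. The other peaks were assigned to Snx16, Arrdc3, Hmga2 and Klf2.

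**Figure D3:**
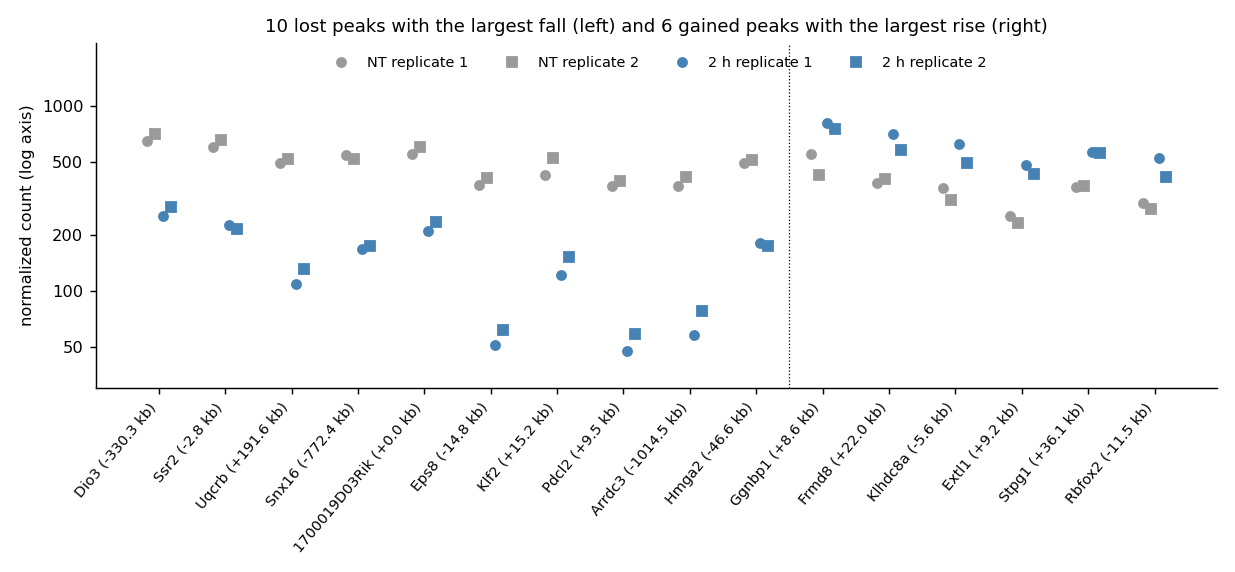
Normalized counts (log axis) in the 4 libraries at the 10 lost peaks with the largest fall and the 6 gained peaks with the largest rise, named by nearest gene with the distance from its TSS in kb; grey points are NT and blue points 2 h, circles replicate 1 and squares replicate 2. Both 2 h points lie beyond both NT points at every peak, which was a condition for listing them.

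At the core pluripotency genes the loss was uneven. Klf2, a Krüppel-like factor of the naive network, had the largest fall of any locus on the naive list: 4 of its 8 peaks were lost and the sums were 1141 and 1267 in the NT libraries and 515 and 490.1 at 2 h (log2 fold change -1.26, SE 0.10, edgeR adjusted p = 1.55e-06). The peak 15.2 kb downstream of the Klf2 TSS (chr8:72333366-72335054) went from 424 and 521 in NT to 123 and 153 (log2 fold change -1.76, edgeR adjusted p = 8.25e-10), and the peak 2.70 kb upstream of it, with the SOX match shown above, had 232 and 246 in the NT libraries and 54.7 and 45.6 at 2 h (log2 fold change -2.25, edgeR adjusted p = 1.37e-09). The promoter peak of Klf2 fell less, by 0.62 on the log2 scale. At Pou5f1, which encodes OCT4, 3 of 6 peaks were lost and the sums were 1350.5 and 1406 in the NT libraries and 1061 and 1054 at 2 h (log2 fold change -0.38, SE 0.07, edgeR adjusted p = 0.00202). Its strongest peak, 1.95 kb upstream of the TSS, had 729 and 787 in the NT libraries and 623 and 629.9 at 2 h and did not pass (edgeR adjusted p = 0.269), while the peak 15.5 kb upstream of the TSS went to 98.1 and 97.0 from 188 and 178.

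Nanog, a homeobox factor of the same network, did not pass as a locus: the sums were 1664 and 1547 in the NT libraries and 1573 and 1489 at 2 h (log2 fold change -0.07, SE 0.09, edgeR adjusted p = 0.693), and the groups overlapped. Of its 16 peaks 2 were lost, the promoter peak with the exact composite (259.6 and 241 in the NT libraries and 186 and 172 at 2 h, edgeR adjusted p = 0.0445) and a peak 8.40 kb downstream of the TSS (154 and 154 in the NT libraries and 83.0 and 91.2 at 2 h, edgeR adjusted p = 0.00137). The promoter call was not made by DESeq2. Its strongest peak, 4.75 kb upstream of the TSS, had 478 and 433 in the NT libraries and 505 and 414 at 2 h. At Sox2 itself 6 of 84 peaks were lost and the sums were 4708 and 4763 in the NT libraries and 4593 and 4419.5 at 2 h (log2 fold change -0.07, SE 0.06, edgeR adjusted p = 0.557). The largest fall there stood 137 kb downstream of the TSS (chr3:34786697-34787725, 186 and 157 in the NT libraries and 81.1 and 59.7 at 2 h, log2 fold change -1.30), and a second at 117 kb had 70.3 and 59.5 in the NT libraries and 20.7 and 19.1 at 2 h. The strongest peak of the Sox2 locus, 111 kb downstream of the TSS, had 453 and 389 in the NT libraries and 524 and 392 at 2 h and did not pass (edgeR adjusted p = 0.814), and neither did the promoter peak (287 and 367 in the NT libraries and 276 and 343 at 2 h).

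**Figure D4:**
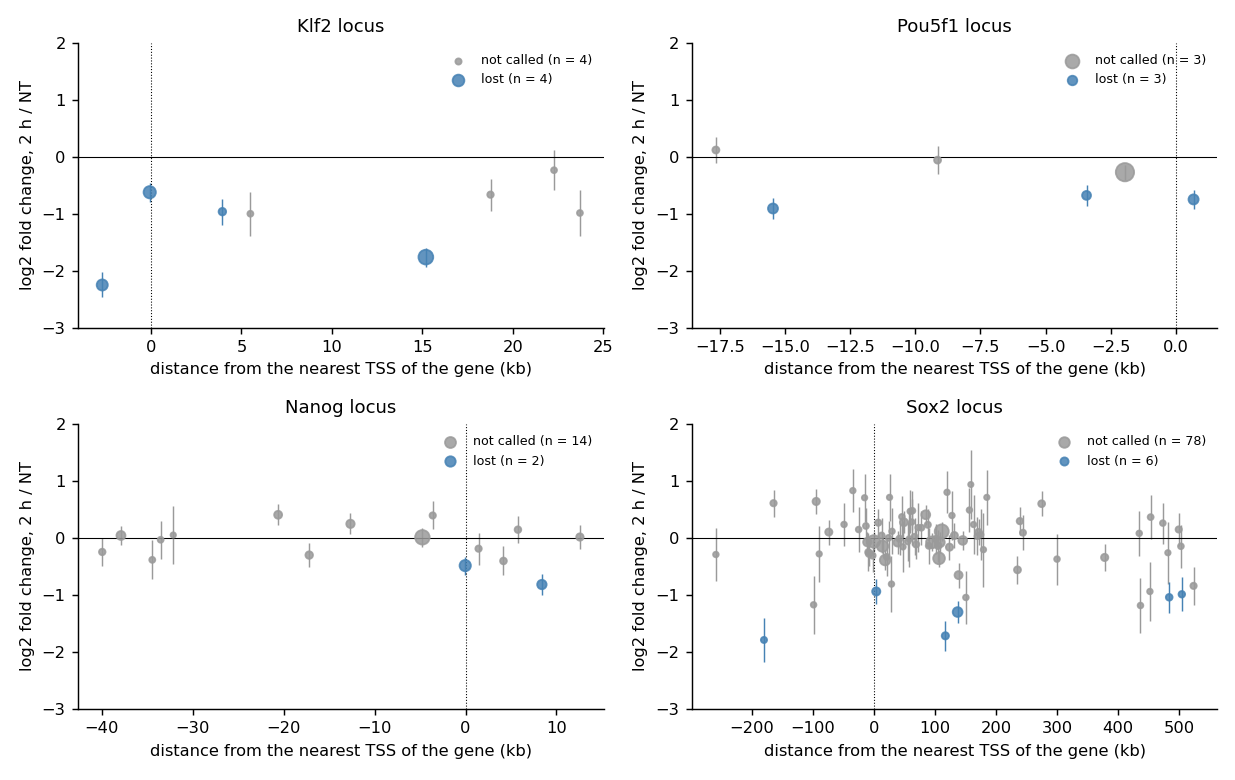
Log2 fold change (2 h against NT, bars show the standard error) of every tested peak of Klf2, Pou5f1, Nanog and Sox2 against the distance from the nearest TSS of the gene in kb, on the strand of the gene; point area grows with the NT level, and lost peaks are blue. No peak of these loci was gained, and 4 of 8, 3 of 6, 2 of 16 and 6 of 84 peaks were lost.

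Gene lists of pathways and cell types are read against all genes, where 7.29% of assigned peaks were lost, 1.46% were gained, 11.6% of loci were called lower and 2.49% higher, and the median locus changed by 0.0030 on the log2 scale. The lists were chosen with earlier results of these data known and carry no test of their own. Over 25 naive regulators 85 of 856 peaks (9.93%) were lost, 12 loci were called lower, none higher and 13 were not called, with a median of -0.21. Besides Klf2 and Pou5f1, Mycn lost 9 of 60 peaks, Klf4 6 of 38 and the nuclear receptor gene Nr5a2 6 of 62. The sums of Mycn were 4456 and 4617 in the NT libraries and 3669 and 3642 at 2 h (log2 fold change -0.31, SE 0.06, edgeR adjusted p = 0.00298). Named here after their values were seen, Prdm14, a repressor of naive and germ cells, fell by 0.53 on the log2 scale with 5 of 24 peaks lost, and Esrrb had 1 of 57 lost and a log2 fold change of -0.07 that did not pass. Over 20 classic stem cell markers and SOX2-OCT4 targets 33 of 235 peaks (14.0%) were lost, and 8 loci were called lower, none higher and 12 were not called (median -0.25). Jam2, an adhesion molecule of the junctions, led with 5 of 13, and its sums were 1536 and 1556 in the NT libraries and 782 and 788 at 2 h (log2 fold change -0.98, SE 0.09, edgeR adjusted p = 3.86e-06). Its peak 4.84 kb downstream of a TSS went from 440.2 and 416 to 135 and 97.8. Fgf4, the growth factor of the early embryo, lost 3 of 10, Fbxo15 4 of 31 and Tdh, the threonine dehydrogenase gene of mESC, 3 of 12, and all 3 loci were called lower. At Fgf4 the deepest fall lay in the UTR 3.25 kb downstream of a TSS, with 172 and 195 in the NT libraries and 71.7 and 59.7 at 2 h.

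Lifr and Il6st, which encode both chains of the LIF receptor that keeps mESC naive, lost 6 of 36 and 4 of 22 peaks. Summed counts of Lifr were 2167 and 2113 in the NT libraries and 1321 and 1432 at 2 h (log2 fold change -0.64, SE 0.08, edgeR adjusted p = 3.52e-05). Those of Il6st were 1491 and 1641 in the NT libraries and 1112 and 1026 at 2 h (log2 fold change -0.55, SE 0.08, edgeR adjusted p = 0.00014). The groups did not overlap at either locus, which their choice by called peaks favours. The peak 1.42 kb upstream of the Il6st TSS went from 190.2 and 252 to 64.1 and 70.4. In the LIF-STAT3 and BMP-ID list as a whole 25 of 316 peaks (7.91%) were lost, 4 loci were called lower and 13 were not called, so its lost share lay near that of all genes. Id4, an inhibitor of helix-loop-helix factors, was also lower (log2 fold change -0.28, adjusted p = 0.028), and Smad6, an inhibitor of BMP signals, gained 3 of 33 peaks without a call for the locus (log2 fold change 0.29, adjusted p = 0.142); with the replicate block the Smad6 locus was called higher. In the Nodal and TGF-beta pathway 26 of 372 peaks (6.99%) were lost, 5 of 18 loci were called lower and 13 were not called. Tgfbr2, a receptor chain, lost 7 of 62, the ligand gene Inhbb 4 of 30 and the proprotein convertase gene Pcsk6 3 of 27. Lefty1, a secreted Nodal inhibitor named after its values were seen, had sums of 598 and 668 in the NT libraries and 287 and 331 at 2 h (log2 fold change -1.03, SE 0.12, edgeR adjusted p = 2.37e-05) with 2 of 3 peaks lost. Tgfbr2 rested on distal peaks: with peaks beyond 100 kb left out its log2 fold change was 0.018, and with the nearest gene of any kind 0.038.

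Among FGF-ERK effectors 39 of 514 peaks (7.59%) were lost and 13 gained (2.53%); 2 loci were called lower, 2 higher and 18 were not called. Fgf4 and the ETS factor gene Etv1 were lower, and Fgfr1, an FGF receptor, and Fos were higher (log2 fold change 0.24, adjusted p = 0.025 at Fgfr1). In the Wnt list 32 of 559 peaks (5.72%) were lost and 10 gained (1.79%), with 3 of 25 loci called in each direction. Lgr5, a receptor for R-spondins, was lower (log2 fold change -0.62, adjusted p = 0.00444) with 4 of 12 peaks lost, while Axin2, a feedback inhibitor and Wnt target, was higher with 4 of 31 gained. Sums at Axin2 were 1725 and 1540.4 in the NT libraries and 2089 and 1929.5 at 2 h (log2 fold change 0.30, SE 0.09, edgeR adjusted p = 0.0398). The Hippo-YAP list had 17 of 294 peaks (5.78%) lost, and 3 of 20 loci were lower: the angiomotin gene Amot (3 of 7 peaks lost, log2 fold change -0.91, adjusted p = 0.00017), Ccn2, a YAP target, and the kinase gene Stk3. The lost peaks of Amot lay 324 to 627 kb from its TSS. In the list of SWI/SNF and Polycomb genes 35 of 552 peaks (6.34%) were lost and 3 of 23 loci were called in each direction; Eed, a PRC2 subunit, lost 4 of 19 and Jarid2, a PRC2 partner, 8 of 114 with 4 gained.

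Genes of later lineages did not move as 1 group. For formative and primed epiblast genes 38 of 315 peaks (12.1%) were lost; Cdh2, Foxd3 and Otx2, a homeobox factor of the epiblast, were lower (Otx2 sums 1805 and 1970.2 in the NT libraries and 1397 and 1582 at 2 h, log2 fold change -0.34, SE 0.10, edgeR adjusted p = 0.0285), as was Zic5, while Pou3f1 was higher (log2 fold change 0.39) and 12 of 17 loci were not called. In trophectoderm genes 23 of 255 peaks (9.02%) were lost and 11 gained (4.31%), against 1.46% gained over all genes. Krt18, a keratin of simple epithelia named after its values were seen, gained 3 of 9 peaks, and its sums were 215 and 228 in the NT libraries and 412 and 336 at 2 h (log2 fold change 0.76, SE 0.15, edgeR adjusted p = 0.0024). Hand1, a helix-loop-helix factor, gained 3 of 26 and was higher (log2 fold change 0.37, SE 0.08, edgeR adjusted p = 0.00413), whereas Gata3 and Tfap2a were lower with 5 of 33 and 5 of 29 lost, and 12 of 16 loci were not called. The lost peaks of Gata3 lay 227 to 430.3 kb from the TSS, and without peaks beyond 100 kb its log2 fold change was 0.065. In primitive endoderm genes 20 of 291 peaks (6.87%) were lost and 3 of 18 loci were called lower: Lamc1, Dab2 and Foxq1. Dab2 stood at 0.21 without peaks beyond 100 kb and at 0.17 with the nearest gene of any kind. Mesendoderm genes had 9 of 126 peaks (7.14%) lost and 4 gained (3.17%): Gsc was lower, Evx1 and Mesp1 were higher and 9 of 12 loci were not called. In neural genes 20 of 191 peaks (10.5%) were lost, with Pou3f3, Neurog1 and Nes lower, Hes5 higher and 12 of 16 loci not called; Neurog1 stood at 0.026 with the nearest gene of any kind.

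Over 19 tested Sox genes 46 of 429 peaks (10.7%) were lost, yet only Sox5 and Sox13 were called lower as loci and 17 were not called. Sox9 lost 11 of 80 peaks, while its sums were 3649 and 3540.3 in the NT libraries and 3429 and 3429.9 at 2 h (log2 fold change -0.07, SE 0.08, edgeR adjusted p = 0.662). Sox5 sums were 2709.7 and 2776 in the NT libraries and 2034 and 2283 at 2 h (log2 fold change -0.34, SE 0.08, edgeR adjusted p = 0.00731). Housekeeping genes, kept as controls, had 3 of 128 peaks (2.34%) lost and 3 gained (2.34%); 1 locus, that of the ribosomal protein gene Rps26, was called lower, 1 was called higher and 14 of 16 were not called. At Rps26 the sums were 591 and 618 in the NT libraries and 478 and 524 at 2 h (log2 fold change -0.27, SE 0.09, edgeR adjusted p = 0.0456). Sterol synthesis genes had 5 of 171 peaks (2.92%) lost and 9 gained (5.26%), the highest gained share of the 17 lists. Their gained peaks were 1 each at 9 genes, among them Hmgcs1 and Insig1. Insig1 was the 1 locus called higher (log2 fold change 0.36, edgeR adjusted p = 0.0092). Another 2 loci were called lower, Sqle among them, and 16 of 19 were not called. Fibroblast markers had 6 of 90 peaks (6.67%) lost and 4 gained (4.44%); Thy1 and Pdgfrb were higher, Col3a1 and Lum lower and 7 of 11 not called. The loci of Sry, Brd9, Nsdhl and Fap had no tested peak. Etv1, Fos, Zic5, Pou3f1, Mesp1, Nes, Hes5, Sox13 and Lum were named after their values were seen, to complete the called members of their lists.

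**Figure D5:**
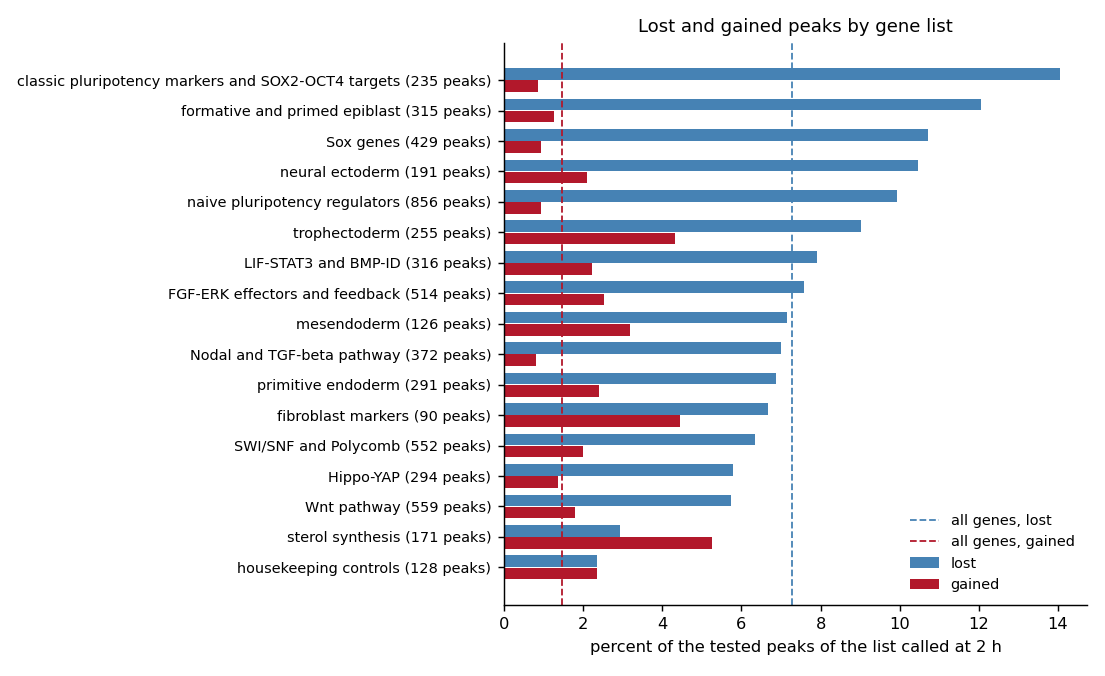
Percent of the tested peaks of 17 gene lists called lost (blue) and gained (red) at 2 h; dashed lines give the shares over all genes, 7.29% lost and 1.46% gained. Classic pluripotency markers and SOX2-OCT4 targets have the highest lost share, 14.0%, and sterol synthesis genes the highest gained share, 5.26%.

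Gained peaks were fewer than lost ones and lay at fewer genes. Genes with 5 or more gained peaks held 8.29% of gained peaks, while genes with 5 or more lost peaks held 24.6% of lost peaks. Lost peaks are the more numerous, which by itself puts a larger share of them at such genes. The largest number belonged to Gm26897, a gene without a characterised product, with 11 of 64, and all 11 formed 1 chain of 91.6 kb upstream of it (chr5:111590434-111682021). This chain had summed counts over its gained peaks of 405 and 364 in NT and 877 and 758 at 2 h, a direction that the calls fix. Its locus was called higher (log2 fold change 0.40, SE 0.08, edgeR adjusted p = 0.00254). Arhgef10l gained 10 of 59 and none was lost. Its sums were 4064 and 3719 in the NT libraries and 5353 and 4759 at 2 h, which did not pass (log2 fold change 0.38, adjusted p = 0.0684). Sdk2, an adhesion molecule, gained 10 of 63, with sums of 2197 and 1993 in the NT libraries and 2627 and 2935 at 2 h (log2 fold change 0.41, SE 0.08, edgeR adjusted p = 0.00188). The Groucho corepressor gene Tle3 gained 10 of 99 and lost 3. Msi2, an RNA-binding protein gene, gained 9 of 93 and lost 5, and the stress gene Gadd45g gained 9 of 45 in a stretch from 107 to 305 kb from its TSS. The splicing regulator gene Mbnl2 gained 8 of 41 within 26.0 kb of a TSS and was higher (log2 fold change 0.40, adjusted p = 0.0026), and so was Igsf21, an immunoglobulin superfamily gene, with 6 of 46 gained. 4931429L15Rik, Reep3, Camta1 and 1600014C23Rik gained 6 or 7 peaks each.

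Of these 12 loci 4 were called higher and 8 were not called, with log2 fold changes from 0.09 to 0.41; with the replicate block 11 of 12 were called higher, all but Reep3. Lost peaks also stood at 9 of the 12. With peaks within 100 kb of a TSS alone, Msi2, Mbnl2, Arhgef10l and Igsf21 stayed among the 12, and Zc3h12a, which encodes a ribonuclease of inflammatory transcripts, Unc5a, a netrin receptor gene, and Cdh22 followed with 6 gained peaks each. Other chains of gained peaks stood at Fgr, a Src family kinase gene, (5 peaks over 30.3 kb, chr4:132973806-133004078, summed counts over the chain of 509.7 and 494 in NT and 862 and 819 at 2 h) and in an intron of Igsf21 (5 peaks over 48.4 kb). Among the gained peaks with the largest rise, that of Ggnbp1 (chr17:27038253-27041863, sequence above) had 548 and 423 in the NT libraries and 808 and 755 at 2 h (log2 fold change 0.68, SE 0.15, edgeR adjusted p = 0.00206). The peak near Extl1, a heparan sulfate enzyme gene, (chr4:134355786-134357693) had 254 and 232 in the NT libraries and 478 and 430.1 at 2 h (log2 fold change 0.90, SE 0.18, edgeR adjusted p = 0.000445), the largest fold of the 6. Klhdc8a, Frmd8, Stpg1 and the splicing factor gene Rbfox2 held the others, of which those at Klhdc8a, Frmd8 and Stpg1 were not called by DESeq2. Against the same NT libraries the Ggnbp1 peak changed by 0.60 at 1 h and -0.24 at 24 h, and the Extl1 peak by 0.82 and 1.18 on the log2 scale.

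The gene loci with the lowest fold changes, among called loci with at least 3 tested peaks, held few peaks. At Tas2r130, a bitter taste receptor gene, all 3 peaks were lost and the sums were 318 and 328 in the NT libraries and 38.1 and 54.9 at 2 h (log2 fold change -2.78, SE 0.24, edgeR adjusted p = 3.07e-06). Akr1c18, a steroid-reducing enzyme gene, had 214 and 186 in the NT libraries and 41.0 and 40.3 at 2 h (log2 fold change -2.31, SE 0.24, edgeR adjusted p = 1.18e-05), and the sulfotransferase gene Sult2a4 had 285 and 279 in the NT libraries and 50.5 and 65.2 at 2 h (log2 fold change -2.28, SE 0.18, edgeR adjusted p = 1.55e-06). Cyp2c37 and Cyp3a13, of the cytochrome P450 family, changed by -2.13 and -1.84, and 4921511C20Rik, Pet2, Gm438, Pih1d3 and Tex13c2 lay between -2.22 and -1.85. The calls of Sult2a4 and Pet2 depended on the assignment: Sult2a4 stood at 0.14 with the nearest gene of any kind, and Pet2 at 0.48 without peaks beyond 100 kb. Rises were smaller. Wfdc3, a protease inhibitor gene, came first with 52.5 and 56.7 in the NT libraries and 97.2 and 111 at 2 h (log2 fold change 0.94, SE 0.21, edgeR adjusted p = 0.00506), followed by Igtp, an interferon-induced GTPase gene, with 37.6 and 39.7 in the NT libraries and 79.1 and 66.1 at 2 h (log2 fold change 0.91, SE 0.21, edgeR adjusted p = 0.00642). Gm5136, the chemokine gene Ccl22, Gpr55, the cathepsin gene Ctsk, Gdap1l1, the granzyme gene Gzma, Slc51b and Tac2, a neurokinin precursor gene, rose between 0.79 and 0.84 log2 units. Of these 10, Ctsk and Gzma were not called by DESeq2, and Gzma was called without a called peak.

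OCT4-FKBP cells carry the tag on OCT4 instead and give the nearest comparison. They derive from another embryonic stem cell line, V6.5 in the labels, and were treated with the same dose, with their own 2 NT and 2 libraries of 2 h. When the difference between both 2 h responses was tested in a joint fit of 27 libraries, 89 of 18891 loci (0.471%) changed further down in SOX2-FKBP cells and 17 (0.09%) further up. Of the 15 genes with the most lost peaks, 1 was among the 89: 4930452B06Rik, with a change of -0.51 in SOX2-FKBP and 0.25 in OCT4-FKBP cells (difference -0.76, SE 0.17, edgeR adjusted p = 0.0345). Of the 10 genes with the largest lost share, 3 were: Aasdhppt, with a change of -1.12 in SOX2-FKBP and -0.19 in OCT4-FKBP cells (difference -0.93, SE 0.17, edgeR adjusted p = 0.00689), Rit2 and Zfp804b. Tas2r130, Sult2a4, 4921511C20Rik and Gm438 were too. At Tas2r130 the counts in OCT4-FKBP cells were 522 and 557 in NT and 307 and 354 at 2 h. For Klf2, with -0.78 in OCT4-FKBP cells on the log2 scale, the difference was -0.43 (SE 0.44, edgeR adjusted p = 0.977), and for Lifr, with -0.07, it was -0.52 (SE 0.23, edgeR adjusted p = 0.533); neither passed, and Lifr did with the replicate block. None of the 12 genes with the most gained peaks differed by this test. With the replicate block 542 and 243 loci differed, among them 6 of the 15 genes with the most lost peaks (Tbl1xr1, Ctnnd2, Slc39a10, Cdh9, 4930452B06Rik and Cdh2), 7 of the 10 with the largest lost share, all further down, and 2 of the 12 with the most gained peaks, Gm26897 and Mbnl2, further up. The count moved with libraries too, as the 89 were 30, 32, 19 and 48 without NT replicate 1, NT replicate 2, 2 h replicate 1 and 2 h replicate 2 of SOX2-FKBP cells, and 34, 61, 38 and 57 without those of OCT4-FKBP cells. The number of loci further up was below 17 in each of these fits too. The tagged factor, the parental line and the library preparation cannot be told apart in this comparison.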

How the data were processed

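ATACseq was analysed in mouse embryonic stem cells with tagged SOX2 (cell line E14 in the labels) and, for 1 comparison, tagged OCT4 (cell line V6.5). Per the labels and the study's methods, the authors aligned reads to mm10 with BWA mem (BWA 0.7.17-r1188, SAMtools 1.10 and Picard 2.12.0 in the submitters' processing notes), dropped duplicates and reads with a mapping quality under 10, ran MACS2 on merged libraries and deposited raw counts of fragments for each peak and library, without normalization. A peak list, whose summit offset was used, was deposited with them; its scores and p-value columns were not used. All peaks were called once on pooled libraries, so a peak was measured in every library. Of 45 samples, the 31 with a column of counts could be used, and the other 14 were not analysed here.

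The authors' counts were tested here with edgeR 4.0.16 in R 4.3.3 (quasi-likelihood test, TMM, Benjamini-Hochberg adjustment, threshold 0.05) in 1 fit of the 12 SOX2-FKBP time-course libraries, which share the estimate of spread. The filter, a count over 10 in more than 2 libraries, kept 160432 peaks. Normalized counts are counts divided by effective library size and scaled to the mean of the libraries. For gene loci, counts of the tested peaks of a gene were summed and fitted likewise. Genes are protein-coding genes of GENCODE vM21 (mm10), motifs and sequences come from the mm10 genome, and positions count from 1. The difference from OCT4-FKBP cells was tested in 27 libraries of 3 lines, where the filter asked for a count over 10 in more than 6 libraries. DESeq2 1.42.0 and the other alternatives are in the closing section. Python 3.11.15 joined the tables.

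The members and gene lists were chosen with earlier results of these data known. Named were the 15 genes with the most lost peaks, the 10 with the largest lost share among genes with at least 10 tested peaks, the 12 with the most gained peaks, Sox2, Pou5f1, Nanog and Klf2, up to 4 members with the most called peaks from each list, the 10 lost and 6 gained peaks with the largest change in normalized counts, the 5 lost and 3 gained chains with the most peaks, and the 10 lowest and 10 highest called loci with at least 3 peaks. Some genes that this rule names are not reported here. Families, ranks within 100 kb and genes said to be so were chosen after values were seen.

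Libraries of the same replicate number deviated together from their group means in all 15 pairs of SOX2-FKBP conditions (correlation 0.121 to 0.339 over 99951 peaks), so the numbers were taken to pair the libraries. The main fits did not use this pairing: they held time alone, or line and time in the comparison with OCT4-FKBP cells. Fits with the replicate number as a block are given as an alternative beside them. Replicates of a group differed by more than sampling noise (chi-square per degree of freedom 1.246 in NT and 1.949 at 2 h). Precision was limited by 2 libraries a group and 6479369 to 10531404 counts a library. In a test on simulated data with a spread set in advance, 100 features were changed at each size. Among 160432 simulated peaks, 63 of 100 changed by 2 log2 units and 2 of 100 changed by 1 log2 unit were recovered. Of 18663 simulated loci, 81 of 100 changed by 1 log2 unit were recovered. That test called 67 peaks, far fewer than the 11680 lost in the data, which makes its adjusted threshold stricter. Its shares therefore do not give the recovery in the 2 h comparison.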

Additional observations from a re-analysis of the deposited data

Results flagged for a closer look

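The 2 h response differed between SOX2-FKBP and OCT4-FKBP cells by the test of the difference (edgeR, all loci tested together) at 89 loci that changed further down and 17 loci that changed further up in SOX2-FKBP cells. Of the 89, 83 were called lower in SOX2-FKBP cells, and of the 17, 15 were called lower in OCT4-FKBP cells. Among the named genes the difference on the log2 scale was -2.27 at 4921511C20Rik, -1.90 at Tas2r130, -1.60 at Gm438 and -1.53 at Sult2a4, all loci of 3 to 5 peaks. It was -0.97 at Rit2, -0.94 at Zfp804b, -0.93 at Aasdhppt and -0.76 at 4930452B06Rik, loci of 12 to 35 peaks. Each line has its own control libraries, the parental cells differ (E14 and V6.5 in the labels), and tagged factor, parental line and library preparation cannot be told apart. All 8 named loci were lower in SOX2-FKBP cells at 2 h in both replicates, which a called difference further down favours.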

How the results depend on the processing

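The number of lost peaks (11680) was 6728 with DESeq2 and 7512 with at least 10 counts required in every library, where fewer peaks are tested. It was about 15000 with the replicate block, and smaller than 11680 without any 1 library. The number of gained peaks (2339) was 409 with DESeq2, 3848 with total counts in place of TMM, 3826 with the NT and 2 h libraries alone, 5641 with the replicate block and 807 to 1549 without 1 library. Lower loci (2166) were 4377 with the nearest gene of any kind, over more loci, and 1249 to 1478 without 1 library. Higher loci (465) were 245 with DESeq2, 930 with total counts, 1219 with NT and 2 h alone, 1460 with the replicate block, 805 with the nearest gene of any kind and 102 to 180 without 1 library. Between lines, the 89 and 17 loci were 542 and 243 with the replicate block, the 89 were 166 with NT and 2 h of both lines alone, and leaving out 1 library gave 19 to 61 and 0 to 12. Where no construction is named, the cause was not tested.

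Of the 15 genes with the most lost peaks, 9 were shared with the DESeq2 list, 4 with that of peaks within 100 kb and 4 with that of the nearest gene of any kind; of the 12 with the most gained peaks, 4, 4 and 4 were shared, and 5 to 7 without 1 library. Chains of 3 or more numbered 179 lost and 27 gained at a gap of 10 kb and 890 and 136 at 50 kb. Over whole peaks the composite stood in 29.4% of lost and 5.30% of gained peaks, the SOX match in 85.5% and 51.8% and the ESRRB match in 14.6% and 24.1%.

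The sign of the log2 fold change turned at Gata3 (0.065), Dab2 (0.21), Tgfbr2 (0.018) and Pet2 (0.48) with peaks within 100 kb. It turned at Akr1e1 (0.17), Dab2 (0.17), Tgfbr2 (0.038), Sall1 (0.040), Neurog1 (0.026) and Sult2a4 (0.14) with the nearest gene of any kind. None of these values passed (edgeR adjusted p from 0.22 to 0.931), so the fall was no longer detected there and no rise was called. Of 125 named loci, 5 lost their call with DESeq2, and 21 to 33 without 1 library. The replicate block added 15 calls among the 125 loci and removed none, and it changed none of the 16 named peaks.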
